A study of Mus musculus with 4 samples.

Results

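Ciliated ependymal nuclei were picked by marker genes from single-nucleus RNA counts of the arcuate nucleus of the mouse hypothalamus (ARC). A nucleus was taken when at least 2 of Ccdc153, Tmem212, Foxj1, Dynlrb2 and Rarres2 had a UMI (unique molecular identifier, 1 captured transcript) and these 5 genes together held at least 0.1% of its UMIs. This gate, which reads the counts themselves, held 54 of the 39176 nuclei that passed the quality limits. The question behind the samples was how DOCA-salt changes the ARC, cell type by cell type. All mice were wildtype C57BL/6J males of 10 weeks. The DOCA-salt mice had received deoxycorticosterone acetate, a mineralocorticoid, from a pellet under the skin together with a saline drink beside water for 3 weeks. The Sham mice had sham surgery and water over the same 3 weeks. Each condition had 2 libraries (DOCA-salt 1 and 2, Sham 1 and 2), and each library pooled nuclei from punches of 2 mice, so a library is the smallest unit that can be compared. The labels name the punched tissue as the ARC and do not say how much of the ventricle wall, where ependymal cells sit, a punch took in.

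Ependymal cells form the lining of the cerebral ventricles. Low on the wall beside the ARC, ciliated ependymal cells give way to tanycytes, which share much of the ependymal program but mostly lack tufts of motile cilia and send long processes into the tissue. The motile cilium is built on an axoneme of doublet microtubules around a central pair. Dynein arms slide the doublets against each other, radial spokes and the nexin-dynein regulatory complex shape the beat, and the beat moves cerebrospinal fluid. Forkhead factor Foxj1 and the RFX factors switch on most axonemal genes, and RFX factors bind a DNA element called the X-box.

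Promoters of the axonemal genes are shown first because a short part of the X-box occurs in many of them. Of 107 axonemal genes listed, 81 had a promoter (250 bases before to 50 after the gene start) in RefSeq on build GRCm38.p6. The X-box motif GTTGCC, read on both strands (GGCAAC on the other), stood in 37 of those 81 genes (45.7%), against 3821 of all 27025 genes of the table (14.1%). The lists differed, with 5 of 6 genes for dynein arm assembly, 7 of 12 for the central pair, 7 of 12 for the doublet inner proteins and tektins, 11 of 23 for other motile cilia genes, 3 of 6 for the regulatory complex and ruler, 4 of 18 (22.2%) for the dynein arms and 0 of 4 for the radial spokes. The share was as high in intraflagellar transport genes, with 9 of 19 (47.4%). Their median log2 ratio of gated over other nuclei in DOCA-salt 2 was 0.66, against 4.69 for the axonemal lists. The multiciliation regulators held the X-box motif in 6 of 9 genes. Among lists not tied to cilia it was 4 of 13 corticosteroid genes (30.8%), 2 of 8 renin-angiotensin genes, 2 of 6 astrocyte markers, 2 of 6 neuron markers, 1 of 12 surface and fluid genes and 0 of 7 tanycyte markers. Oligodendrocyte (4 genes matched), microglia (4), endothelial (5), mural and fibroblast (4) and choroid plexus (3) markers held it in 0 genes. The forkhead motif GTAAACA, also read on both strands, was in 5 of the 81 axonemal genes (6.17%) and in 4.05% of all genes. Of the 5 gate genes, 3 were matched, and Ccdc153 and Dynlrb2 held the X-box motif while Tmem212 did not. A match is only a match of letters in this window. The stretches printed here lie before the gene start of 2 gate genes and of 3 axonemal genes described further on, chosen because they hold it, and the X-box motif is in capitals.
Ccdc153 (chr9:44240483-44240572, + strand): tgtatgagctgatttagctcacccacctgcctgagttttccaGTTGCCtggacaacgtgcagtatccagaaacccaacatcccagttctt
Dynlrb2 (chr8:116504922-116504973, + strand): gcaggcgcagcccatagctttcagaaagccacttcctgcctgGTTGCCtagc
Cfap44 (chr16:44394628-44394717, + strand): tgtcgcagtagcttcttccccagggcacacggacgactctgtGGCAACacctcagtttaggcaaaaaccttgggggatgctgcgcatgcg
Enkur (chr2:21205366-21205441, - strand): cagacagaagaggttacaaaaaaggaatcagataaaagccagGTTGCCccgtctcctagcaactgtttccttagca
Fam183b (chr11:58801980-58802069, - strand): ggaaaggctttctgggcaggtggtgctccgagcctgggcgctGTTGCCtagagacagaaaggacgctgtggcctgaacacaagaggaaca

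The 54 nuclei were spread very unevenly over the libraries. Only 3 of 10307 nuclei of DOCA-salt 1 passed the gate, while DOCA-salt 2 had 44 of 18907. Sham 1 had 0 of 2203 nuclei, and 7 of 7759 passed in Sham 2. As shares of kept nuclei these are 0.0291% (exact 95% interval 0.0060 to 0.0850), 0.233% (0.169 to 0.312), 0% and 0.0902% (0.0363 to 0.186), where 0 of 2203 nuclei allows a share of up to 0.136% by the limit of 3 counts and 0.167% by the exact interval. DOCA-salt 2 thus gave 81.5% of the gated nuclei and 87.5% of their UMIs (188190, against 5697 in DOCA-salt 1 and 21250 in Sham 2). Intervals here and below cover counting error only. What follows on gene levels is in effect a description of DOCA-salt 2, and Sham 1 enters no level at all.

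**Figure D1:**
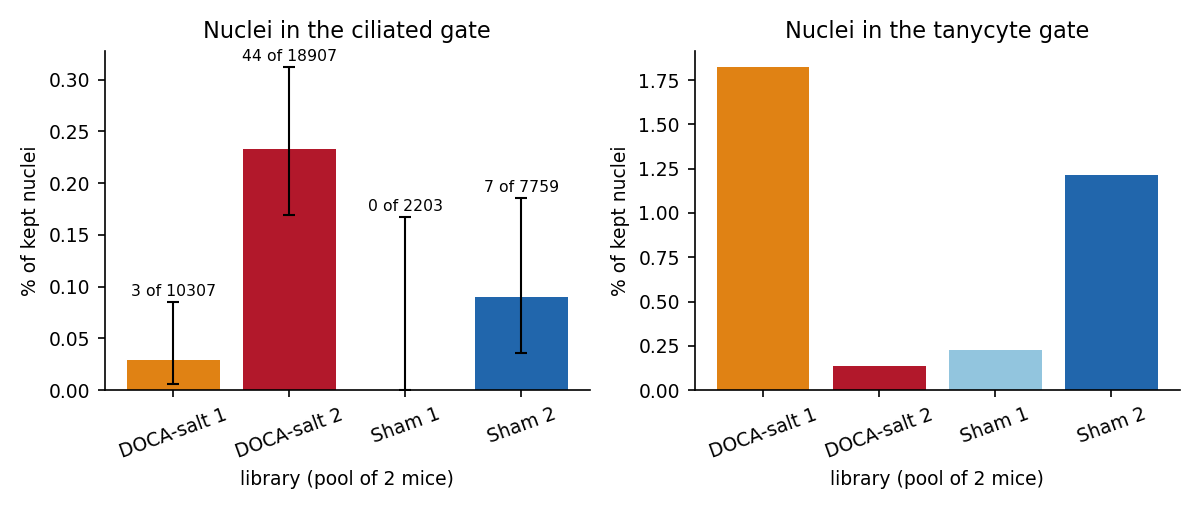
Share of kept nuclei in the ciliated gate (left, bars with exact 95% binomial intervals, number of nuclei above) and in the tanycyte gate (right) for each of the 4 libraries. DOCA-salt 2 is highest for ciliated nuclei (0.233%) and lowest for tanycyte nuclei (0.138%), and Sham 1 has no ciliated nucleus.

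Both DOCA-salt libraries stood apart in single genes over all kept nuclei. Ppp1r1b, which encodes the phosphatase inhibitor DARPP-32, was at 61.5 CPM (the UMIs of a gene scaled to a common total) in DOCA-salt 1 and between 3.34 and 4.52 in the other 3 libraries. Pmch, the precursor of melanin-concentrating hormone and a gene of the lateral hypothalamus, was at 2849 CPM in DOCA-salt 2 and between 29.2 and 43.9 in the other 3. Agrp, a peptide gene that marks the ARC, was at only 1.57 CPM there, while DOCA-salt 1 had 209 CPM and the Sham libraries 52.1 and 86.2. Ccdc153 over all kept nuclei was at 0.481 and 6.51 CPM in the DOCA-salt libraries and at 0.470 and 1.72 in the Sham ones. The tissue taken in by the punches and the number of ciliated nuclei cannot be told apart in these libraries. The median kept nucleus had 2401 and 2534 UMIs in the DOCA-salt libraries and 8215 and 3278 in the Sham ones, so the library without a gated nucleus was also the one with the deepest nuclei. Between 5 and 49 barcodes were shared by any pair of libraries, and none of the 54 gated barcodes occurred in another library.

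In a nucleus of many UMIs the 0.1% limit asks for more gate UMIs than in a shallow one. In Sham 1, 25 nuclei had a UMI of 2 or more gate genes but stayed under the limit, with a median of 12191 UMIs per nucleus, and the highest of them had 0.0700% of its UMIs in the gate genes. The corresponding counts were 29 in DOCA-salt 1, 72 in DOCA-salt 2 and 51 in Sham 2. Without the minimum share, Sham 1 was highest, at 1.13% of its nuclei. DOCA-salt 1, DOCA-salt 2 and Sham 2 were then at 0.310%, 0.614% and 0.748%. With each nucleus thinned to 1000 UMIs, 1 of 2191 nuclei passed the gate in Sham 1 and 0 of 8329 in DOCA-salt 1. In DOCA-salt 2 it was 27 of 15304 and in Sham 2 it was 5 of 6834, so the order of the libraries changed with these choices. Just inside the limit, the lowest gated nuclei had 0.108% in DOCA-salt 2, 0.130% in Sham 2 and 0.144% in DOCA-salt 1. Just outside it, the highest nuclei had 0.0957% in DOCA-salt 2, 0.0976% in Sham 2 and 0.0736% in DOCA-salt 1. Of the nuclei outside, 4 in DOCA-salt 2 and 7 in Sham 2 were rich in axonemal genes by the measure given further on, and 0 in DOCA-salt 1 and Sham 1.

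The gate genes chose the nuclei, so their levels are given only as a description. Ccdc153, a coiled-coil gene used as a marker of ependymal cells (ENSMUSG00000070306, chr9:44240676-44247306), had 1 UMI in the gated nuclei of DOCA-salt 1, 201 in DOCA-salt 2 and 11 in Sham 2. Rarres2, which encodes the secreted adipokine chemerin (ENSMUSG00000009281, chr6:48569696-48572789), had 5, 121 and 18 UMIs in this order. Foxj1, the forkhead factor of motile cilia (ENSMUSG00000034227, chr11:116330704-116335399), had 1, 37 and 7. In DOCA-salt 2 the gate thus rests mostly on Ccdc153 and Rarres2. In DOCA-salt 1, Dynlrb2 and Rarres2 had a UMI in all 3 gated nuclei and Ccdc153 in 1. In Sham 2, Dynlrb2 and Ccdc153 each had a UMI in 4 of 7. Tmem212, which encodes a membrane protein (ENSMUSG00000043164, chr3:27866066-27896368), had 0, 35 and 1 UMIs. Dynlrb2, a light chain of cytoplasmic dynein that is abundant in ciliated cells (ENSMUSG00000034467, chr8:116504974-116515915), had 3, 27 and 5.

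In DOCA-salt 2, 41 of 44 gated nuclei (93.2%) had a UMI of Ccdc153, against 7 of 903 oligodendrocyte nuclei (0.775%) of the same library, a cell type that should lack it. The median depths were 2702 and 1032 UMIs. In Sham 2, 4 of 7 gated nuclei had one, against 1 of 544 oligodendrocyte nuclei (0.184%), and in DOCA-salt 1 it was 1 of 3 against 0 of 185. Ccdc153 is a gate gene and the oligodendrocyte nuclei lay outside the gate, so the choice of nuclei largely fixed these contrasts. They are given only as a description. Ccdc153 was absent from 8 of the 54 nuclei, of which 2 came from DOCA-salt 1, 3 from DOCA-salt 2 and 3 from Sham 2. Dynlrb1, the broadly expressed paralog of Dynlrb2, had 25 UMIs in the gated nuclei of DOCA-salt 2 and was at 133 CPM there and at 316 CPM in all other nuclei of the library.

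The label was checked against genes that the gate did not read. A gene was counted as higher in the gated nuclei of DOCA-salt 2 when it had at least 3 UMIs there and its CPM was at least 8 times that of all other nuclei of the library. Among genes with at least 50 UMIs in the library, 65 of 85 axonemal genes met this, and 454 of all 14728 did (3.08%). That limit counts the gated nuclei's own UMIs, so some genes pass it only through the nuclei in which they are high. With at least 50 UMIs in the other nuclei alone, a choice added after seeing the data, it was 60 of 79 axonemal genes and 426 of all 14691 (2.9%). These counts describe nuclei that were picked for cilia genes, no test applies to them, and they are no independent support for the label. Summed over the axonemal lists, the gated nuclei had 1.35% of their UMIs in these genes in DOCA-salt 2, 1.11% in DOCA-salt 1 and 1.12% in Sham 2, and all other nuclei of DOCA-salt 2 had 0.0612%. The Sham 2 value rests on its 2 deepest nuclei, at 1.64% and 1.57%, while 4 of its 7 nuclei lay between 0.0582% and 0.567%, the latter being the median. Both of these deep nuclei also carried endothelial markers (0.234% and 0.210% of UMIs) and count as doubly marked by the rule given further on.

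Dynein arm genes, which encode the motors of the cilium, met the 8-fold rule in 15 of 19 cases. With the limit set on the other nuclei alone it was 14 of 18. Dnah12, an inner arm heavy chain (chr14:26693274-26891703), had 2 UMIs in DOCA-salt 1, 168 in DOCA-salt 2 and 8 in Sham 2. That is 893 CPM in DOCA-salt 2 (exact 95% interval 763 to 1038) against 4.29 in its other nuclei. Dnah10 (0, 53 and 2 UMIs), Dnah6 (2, 46 and 3) and the light intermediate chain Dnali1 (0, 37 and 2) were 91.5, 157 and 162 times higher in the gated nuclei of DOCA-salt 2. The docking complex gene Ccdc114 had 2, 35 and 5 UMIs. The other eligible genes of the list were under 8-fold in DOCA-salt 2: Dnah1 (3.86), Dnah7a (2.11), Dnal1 (1.96) and Ccdc151 (6.35).

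Genes for the assembly of dynein arms in the cytoplasm were lower and fewer passed the rule, 3 of 8. Zmynd10 had 0 UMIs in DOCA-salt 1, 34 in DOCA-salt 2 and 5 in Sham 2, and was 28.7 times higher in the gated nuclei of DOCA-salt 2. Lrrc6 (0, 18 and 1 UMIs) was at 15.1 times and Dnaaf3 (0, 13 and 5) at 83.9 times. Dnaaf1, with 8 UMIs in the gated nuclei of DOCA-salt 2 and 3 in Sham 2, had too few UMIs in the library to count. Dnaaf2 had no UMI in the gated nuclei of DOCA-salt 2.

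Radial spoke genes met the rule in 3 of 6 cases. Rsph1, a spoke head gene, had 0, 48 and 3 UMIs in DOCA-salt 1, DOCA-salt 2 and Sham 2 and was 25.6 times higher in the gated nuclei of DOCA-salt 2, while Rsph10b (0, 42 and 1) was 38.9 times higher and Rsph4a (1, 17 and 1) 18.9 times. Rsph9, also of the spoke head, had 31 UMIs in these nuclei but was at 47.2 CPM in all others, a ratio of 3.49.

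Every eligible central pair gene met the rule, 11 of 11. Spef2, which is needed for the central apparatus (chr15:9578193-9748868), had 1, 110 and 7 UMIs and was at 585 CPM (480 to 704) in DOCA-salt 2 against 4.36 in the other nuclei. Cfap65 (2, 82 and 4 UMIs), Cfap46 (2, 61 and 10) and Cfap54 (1, 55 and 2) followed, with ratios of 104, 20.3 and 38.4 in DOCA-salt 2. Spag17, a central pair protein gene, had 1, 40 and 9 UMIs and a ratio of 204.

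The nexin-dynein regulatory complex and the ruler genes that set its spacing met the rule in 4 of 7 cases. Iqcd had 0, 24 and 0 UMIs and a ratio of 51.0 in DOCA-salt 2. Ccdc39, part of the ruler, had 3, 33 and 7 UMIs and a ratio of 6.34, and its partner Ccdc40 had 0, 14 and 1 UMIs and a ratio of 22.5. Drc1, a core subunit of the regulatory complex, had 0, 26 and 3 UMIs and a ratio of 8.67, and Iqcg, another of its subunits, had 1, 15 and 5 and a ratio of 20.8. Proteins inside the doublet microtubules and tektins met the rule in 11 of 15 cases, or 10 of 13 with the limit set on the other nuclei alone. Cfap44 (4, 64 and 6 UMIs), Enkur (4, 61 and 4), Cfap43 (1, 54 and 2) and Tekt1 (1, 36 and 4) had ratios of 44.4, 58.7, 149 and 22.1.

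Other genes of motile cilia met the rule in 18 of 19 cases, or 15 of 16 with the limit set on the other nuclei alone. Odf3b (chr15:89377449-89379282) had 0 UMIs in DOCA-salt 1, 94 in DOCA-salt 2 and 8 in Sham 2 and was at 499 CPM (404 to 611) in DOCA-salt 2 against 3.50 in the other nuclei. Ak7, an adenylate kinase of the axoneme, had 1, 74 and 3 UMIs and a ratio of 164. Fam183b (2, 44 and 2) and Lrriq1 (4, 32 and 3) had ratios of 8.72 and 24.8.

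**Figure D2:**
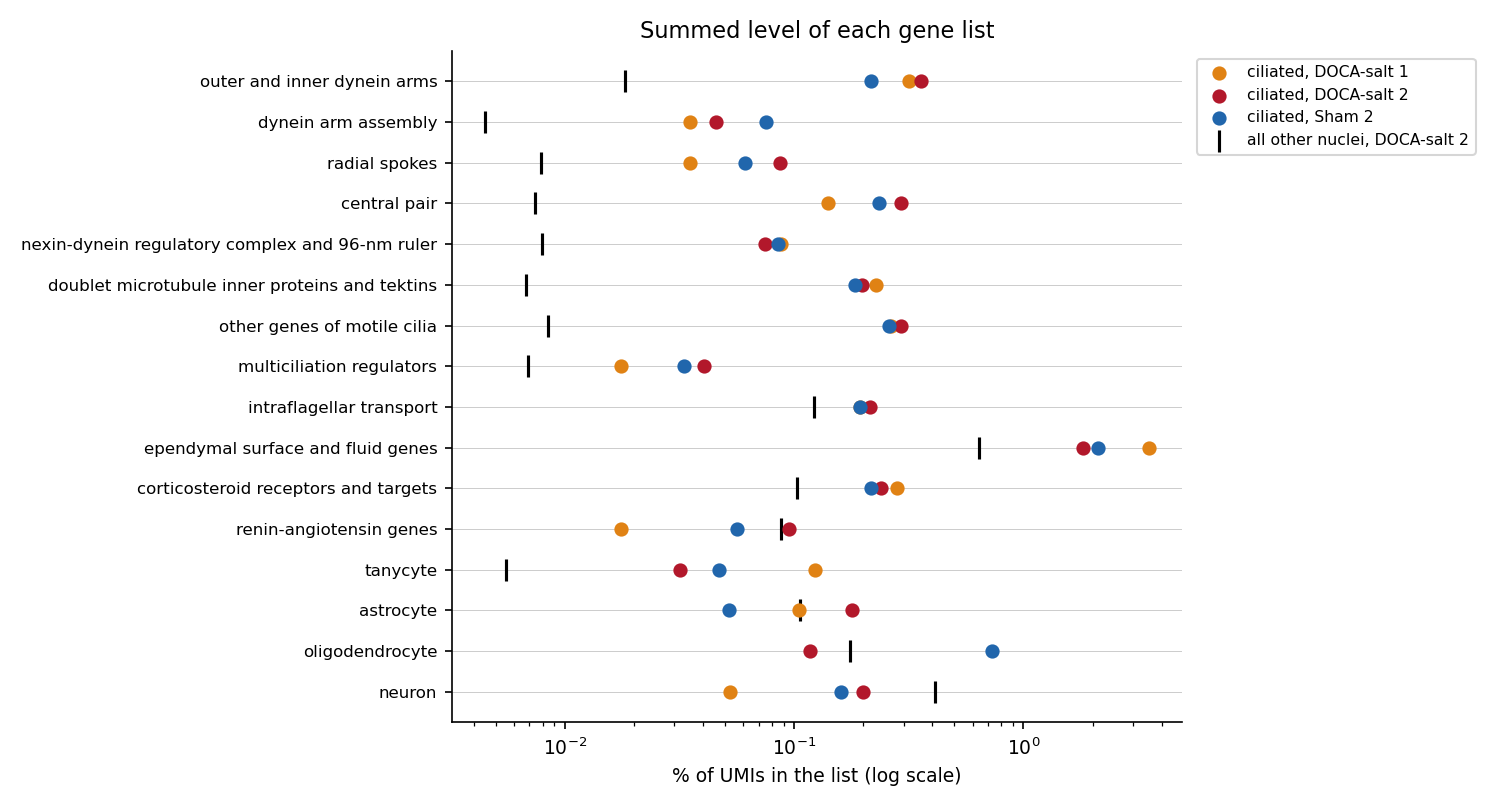
Percent of UMIs (log axis) that fell in each gene list in the gated nuclei of DOCA-salt 1, DOCA-salt 2 and Sham 2 (points) and in all other nuclei of DOCA-salt 2 (upright ticks), where DOCA-salt 1 has no point for oligodendrocyte markers because it had no UMI of them. The axonemal lists lie to the right of the tick in all 3 libraries, and intraflagellar transport lies much nearer to it.

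Regulators of multiciliation were few in these nuclei, and 3 of 6 eligible genes met the rule, or 2 of 5 with the limit set on the other nuclei alone, which Trp73 does not reach. Trp73, which encodes the factor p73 upstream of Foxj1, had 0, 13 and 0 UMIs in DOCA-salt 1, DOCA-salt 2 and Sham 2 and a ratio of 126 in DOCA-salt 2. Rfx3 had 0, 26 and 4 UMIs, but at 44.0 CPM in the other nuclei of DOCA-salt 2 its ratio was 3.14, and Rfx2 (0, 9 and 0) had a ratio of 17.8. Rfx4, a further member of the family, had 0, 18 and 2 UMIs and a ratio of 5.95. Mcidas, Gmnc and Ccno, which start the program in cells that are forming their cilia, had 0 UMIs in all gated nuclei, which in DOCA-salt 2 allows up to 15.9 CPM. Intraflagellar transport genes, which build primary and motile cilia alike, met the rule in 0 of 23 cases. With 3.08% of all eligible genes past it, this count says little about the list. The median ratio of the intraflagellar transport genes was 0.66 on the log2 scale, against 4.69 for the axonemal lists and 0.15 for all eligible genes. Dync2h1, the motor of return transport, had 6, 54 and 8 UMIs and a ratio of 2.26. The kinesin-2 genes Kifap3 (0, 39 and 5 UMIs) and Kif3a (1, 38 and 4), whose motor carries cargo outward, had ratios of 1.13 and 1.18, and Ift81 (0, 36 and 3) had one of 3.55.

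Genes of the ependymal surface and of fluid and ion handling made up 3.53% of the UMIs of the gated nuclei in DOCA-salt 1, 1.82% in DOCA-salt 2 and 2.12% in Sham 2. In all other nuclei of DOCA-salt 2 they made up 0.641%, but in the tanycyte nuclei defined further on they were at 2.07% and 1.90% in the DOCA-salt libraries and at 2.45% and 2.19% in the Sham ones, the range of the gated nuclei of DOCA-salt 2 and Sham 2 or close to it. Of the 20 genes, 4 met the 8-fold rule in DOCA-salt 2. Pltp, a phospholipid transfer protein gene, had 0, 126 and 15 UMIs and a ratio of 23.5. Cd24a, a surface glycoprotein gene of ependymal cells, had 0, 40 and 7 UMIs and a ratio of 18.0, Vim, an intermediate filament gene, had 1, 32 and 8 and a ratio of 13.5, and Mia had 2, 12 and 1 and a ratio of 40.9. The most abundant genes of the list were less selective. Nnat, an imprinted gene that is high in ependyma, had 52, 825 and 143 UMIs and a ratio of 5.08, Apoe had 43, 816 and 82 and a ratio of 2.71, and Cst3 had 79, 633 and 83 and a ratio of 1.81. Clu, the clusterin gene, had 5, 230 and 23 UMIs and a ratio of 2.27. The water channel gene Aqp4 (0, 64 and 6 UMIs) had a ratio of 7.97 and the glial factor gene Sox9 (4, 62 and 10) one of 7.86, both just under the rule. Prom1 had 0 UMIs in all gated nuclei. Among axoneme-rich nuclei, defined further on, Vim and Nnat were not particular to the gate. In DOCA-salt 1, DOCA-salt 2 and Sham 2, Vim was at 405, 264 and 408 CPM outside it and 204, 212 and 568 inside. Nnat was at 9559, 7667 and 13108 CPM outside and 9572, 5395 and 6528 inside. Pltp and Cd24a were at 799 and 244 CPM inside and 695 and 144 outside in DOCA-salt 2. In Sham 2 they were at 922 and 497 CPM inside and 268 and 127 outside. In DOCA-salt 1 neither had a UMI inside.

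Corticosteroid receptors and targets were looked at because DOCA acts through the mineralocorticoid receptor, whose gene is Nr3c2. Nr3c2 had 0 UMIs in the gated nuclei of DOCA-salt 1, 2 in DOCA-salt 2 and 1 in Sham 2, and the glucocorticoid receptor gene Nr3c1 had 1, 14 and 5. In DOCA-salt 2 these were 10.6 CPM (1.29 to 38.4) and 74.4 CPM (40.7 to 125), close to the 11.7 and 80.6 CPM of the other nuclei. Neither gene of Hsd11b1 and Hsd11b2, the enzymes that activate and inactivate glucocorticoids, had a UMI. Scnn1a, the alpha subunit of the epithelial sodium channel, was the 1 gene of 15 that met the 8-fold rule, with 0, 11 and 0 UMIs, 58.5 CPM (29.2 to 105) in the gated nuclei of DOCA-salt 2 and 0.723 CPM in its other nuclei. Its UMIs came from 8 of 44 nuclei. Over all eligible genes 3.08% met the rule, so 1 of 15 says little about the list as a whole. The beta and gamma subunits Scnn1b and Scnn1g had 0 UMIs in all gated nuclei. The metallothionein gene Mt1, a steroid and metal target, was the most abundant of the list with 5, 287 and 26 UMIs (878, 1525 and 1224 CPM), and its ratio in DOCA-salt 2 was 3.37. The related Mt2 had 5, 57 and 8 UMIs and Tsc22d3, which encodes the glucocorticoid-induced leucine zipper, had 2, 28 and 2. Sgk1, a classical target, had 0, 5 and 3 UMIs and Fkbp5 had 1, 5 and 0.

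Of 10 renin-angiotensin genes, 0 of 6 eligible genes met the rule. With 3.08% of all eligible genes past it, this count says little about so short a list. Agt, the angiotensinogen gene and also an astrocyte marker, had 0 UMIs in DOCA-salt 1, 126 in DOCA-salt 2 and 4 in Sham 2, which is 670 CPM (558 to 797) in DOCA-salt 2 against 402 in its other nuclei. The receptor genes Agtr1a, Agtr1b, Agtr2 and Mas1 had 0 UMIs in all gated nuclei. Ace had 1 UMI, in DOCA-salt 2. Atp6ap2, the prorenin receptor gene, had 0, 32 and 4 UMIs and Lnpep, an aminopeptidase gene, had 1, 20 and 4, with ratios of 0.62 and 0.58 in DOCA-salt 2.

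Genes outside the gate with at least 10 UMIs in the gated nuclei were ranked by the lowest of their log2 ratios over the 3 libraries that had gated nuclei, with 0.5 UMI added to each sum. Of the first 25, 21 had 0 UMIs in the gated nuclei of DOCA-salt 1, and 5 of these (Sntn, Prr29, Lhb, Dnah3 and Zp3) had 0 in Sham 2 as well. Their ratios in those libraries come from the added 0.5 UMI, so the ranking does not show that they were high in each library. The first 25 held 7 genes of the axonemal lists. Cdhr4, a cadherin-related gene, had 0, 61 and 2 UMIs in DOCA-salt 1, DOCA-salt 2 and Sham 2, with 324 CPM (248 to 416) against 1.13 in DOCA-salt 2. Ccdc33 (0, 44 and 2 UMIs), Frmpd2 (0, 37 and 1), Dthd1 (0, 22 and 1) and the stomatin-like gene Stoml3 (0, 17 and 1) also stood in it. Lbp, which encodes the lipopolysaccharide-binding protein, had 0, 30 and 1 UMIs and 159 CPM in DOCA-salt 2 against 0.708. The rest of the 25 were Gm36033, Cfap157, Sntn, Gm15478, Prr29, Wdr49, Spag17, Iqca, Nme9, Lrrc74b, Tctex1d4, Lhb, Fam216b, Gm16499, Ak9, Ankrd66, 1700001C02Rik, Dnah3 and Zp3. Most of them rest on few UMIs, with 9 in DOCA-salt 2 for Gm36033, Wdr49 and Iqca and 25 for Dnah3. With the ranking by the lower bound of the ratio in DOCA-salt 2 alone, chosen after seeing the data, 9 of 25 genes were shared, and Lrrc36 (0, 93 and 4 UMIs), Lrrc71 (0, 66 and 3) and Ccdc78 (0, 45 and 2), a gene of centriole amplification, were added.

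The 54 nuclei differed widely among themselves. They had from 671 to 18425 UMIs (median 2482.5) and from 0 to 75 axonemal genes (median 23.5), and axonemal genes made up from 0% to 3.09% of their UMIs (median 1.35%). At least 10 axonemal genes were found in 42 of 54 nuclei and at least 50 in 13. Deeper nuclei had more axonemal genes, as the plot of genes against UMIs shows. Nuclei with all 5 gate genes (n = 11) had a median of 7310 UMIs and of 55 axonemal genes, and those with 2 (n = 24) of 1141 UMIs and 9.5 axonemal genes. As a share of UMIs the axonemal genes were at a median of 1.48% and 0.902% in these nuclei, 1.52% in those with 3 gate genes (n = 12) and 1.43% in those with 4 (n = 7).

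At most 2 axonemal genes were found in 6 nuclei, 4 of DOCA-salt 2 and 2 of Sham 2, so that the label of these nuclei rests on the gate genes alone. In all, 11 nuclei entered the gate with only 2 gate UMIs, 2 of 3 in DOCA-salt 1, 5 of 44 in DOCA-salt 2 and 4 of 7 in Sham 2. The share of mitochondrial UMIs was higher in the gated nuclei than in the whole library, with medians of 6.35% (library 4.99%) for DOCA-salt 1, 9.58% (6.16%) for DOCA-salt 2 and 7.09% (6.21%) for Sham 2. Its part in the gene levels was not tested.

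**Figure D3:**
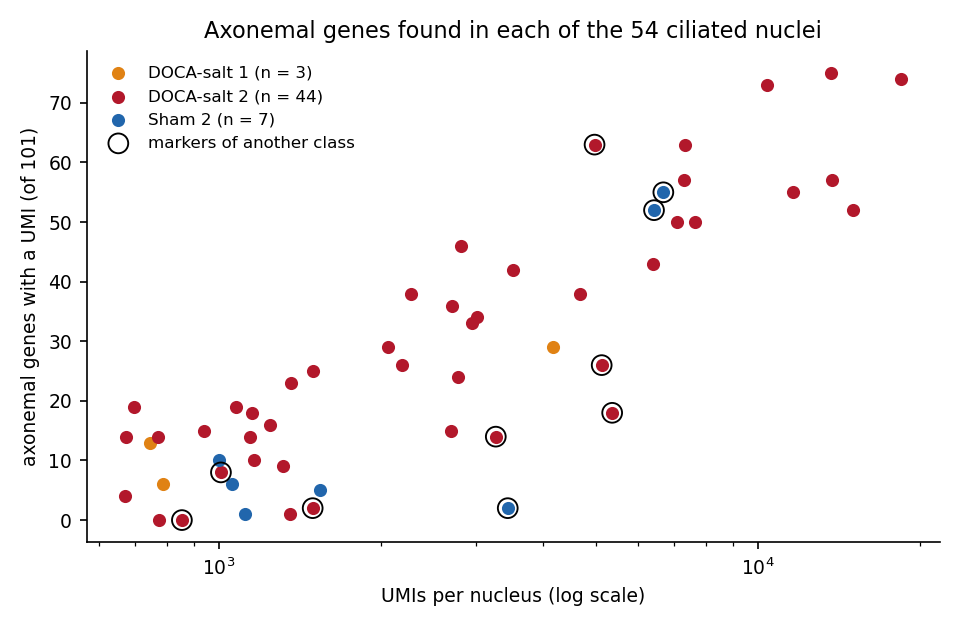
Axonemal genes with a UMI against UMIs per nucleus (log axis) for the 54 gated nuclei, coloured by library, with a ring around the 10 nuclei that carry markers of another class. The number runs from 0 to 75 and is higher in deeper nuclei, and the 6 nuclei with 2 genes or fewer lie along the bottom.

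Markers of other cell types were present in the gated nuclei. A nucleus was counted as doubly marked when it had at least 3 markers of another class (oligodendrocytes, neurons, microglia, endothelium, mural cells and fibroblasts, or choroid plexus) and a summed level over the 95th percentile of its library, or over the median for neurons. This held for 10 of 54 nuclei, 7 of DOCA-salt 2 and 3 of Sham 2, and the class was neuron in 5, endothelium in 2, and oligodendrocyte, microglia and mural cells in 1 each. Neuron markers summed to 0.0527%, 0.199% and 0.160% of UMIs in the gated nuclei of DOCA-salt 1, DOCA-salt 2 and Sham 2. All 8 neuron markers were detected in DOCA-salt 2, led by Snap25 with 120 UMIs, and the list was at 0.413% in the other nuclei of that library. Oligodendrocyte markers summed to 0%, 0.117% and 0.729%. All 6 of these markers were detected in the gated nuclei of both DOCA-salt 2 and Sham 2, and none was in DOCA-salt 1. Endothelial markers summed to 0%, 0.0133% and 0.136%. The 2 nuclei marked as endothelium are the 2 deepest of Sham 2, on which its axonemal level rests. Of the choroid plexus markers, Ttr, Kl and Kcnj13 were at 0 in all gated nuclei, and the list summed to 0.0176%, 0.00691% and 0.0141%. Doublets were not called by a program, and the part of doubly marked nuclei in the results was examined only by leaving them out.

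Astrocyte markers were present at 0.178% of UMIs in the gated nuclei of DOCA-salt 2 (6 of 6 detected, led by Agt with 126 UMIs), against 0.107% in its other nuclei. In the gated nuclei of DOCA-salt 1 they were at 0.105%, against 0.0587% in its other nuclei. Sham 2 went the other way, with 0.0518% in the gated nuclei and 0.0719% in the others. Tanycyte markers were at 0.123%, 0.0319% and 0.0471% in DOCA-salt 1, DOCA-salt 2 and Sham 2, above the 0.0126%, 0.00555% and 0.00967% of all other nuclei. In DOCA-salt 2 that is a ratio of 5.75, against 1.67 for the astrocyte markers. In DOCA-salt 2, 7 of 8 were detected, led by Scn7a with 18 UMIs, whereas the defining gene Rax had 2 UMIs and Frzb none. No tanycyte marker at all was found in 29 of the 54 nuclei, 0 of 3 in DOCA-salt 1, 25 of 44 in DOCA-salt 2 and 4 of 7 in Sham 2. Of the gated nuclei, 1 of 3 in DOCA-salt 1, 3 of 44 in DOCA-salt 2 and 2 of 7 in Sham 2 also met the tanycyte gate described next, a class that is not among those of the doubly marked nuclei.

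Tanycytes are the nearest relatives of these cells in the ARC, and axonemal genes were not limited to the gated nuclei. Nuclei with at least 2 tanycyte markers and 0.1% of UMIs in them, outside the ciliated gate, numbered 188 (1.82% of kept nuclei) and 26 (0.138%) in the DOCA-salt libraries and 5 (0.227%) and 94 (1.21%) in the Sham ones. The library with the highest share of nuclei in the ciliated gate thus had the lowest share of tanycyte nuclei. Axonemal genes held 0.453%, 0.387%, 0.502% and 0.579% of UMIs in the tanycyte nuclei of these 4 libraries, which lies between the 1.35% of the gated nuclei of DOCA-salt 2 and the 0.0612% of its other nuclei. Dnah12 had a UMI in 32 of 188 (17.0%), 5 of 26 (19.2%), 2 of 5 and 23 of 94 (24.5%) tanycyte nuclei, against 5 of 903 (0.554%) oligodendrocyte nuclei of DOCA-salt 2. In the gated nuclei it was 2 of 3 in DOCA-salt 1, 33 of 44 (75.0%) in DOCA-salt 2 and 2 of 7 (28.6%) in Sham 2, the last close to the tanycyte nuclei of that library.

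A second choice of nuclei, added after seeing the data, used at least 1% of UMIs and at least 5 genes of the axonemal lists in place of the gate. It found 30 (0.291% of kept nuclei) and 49 (0.259%) nuclei in the DOCA-salt libraries and 0 and 15 (0.193%) in the Sham ones, of which 2, 29, 0 and 3 were in the gate. By this choice DOCA-salt 1, not DOCA-salt 2, had the highest share. So 34 of the 54 gated nuclei (29 of 44 in DOCA-salt 2) were rich in axonemal genes by this measure, and 60 such nuclei lay outside the gate. Those outside differed between libraries. In DOCA-salt 1, 20 of 28 had the tanycyte marker level given above, Col23a1, a tanycyte collagen gene, was at 2068 CPM and Ccdc153 had 0 UMIs. In Sham 2, 10 of 12 had it and Ccdc153 had 8 UMIs (102 CPM). In DOCA-salt 2, 2 of 20 had it, Col23a1 was at 216 CPM and Ccdc153 at 311 CPM (13 UMIs). Cdhr4 had 0 UMIs in the axoneme-rich nuclei of DOCA-salt 1, 57 in those of DOCA-salt 2 and 2 in those of Sham 2. Dnah12 was found in all 3 libraries, with 21, 164 and 35 UMIs (284, 997 and 378 CPM).

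**Figure D4:**
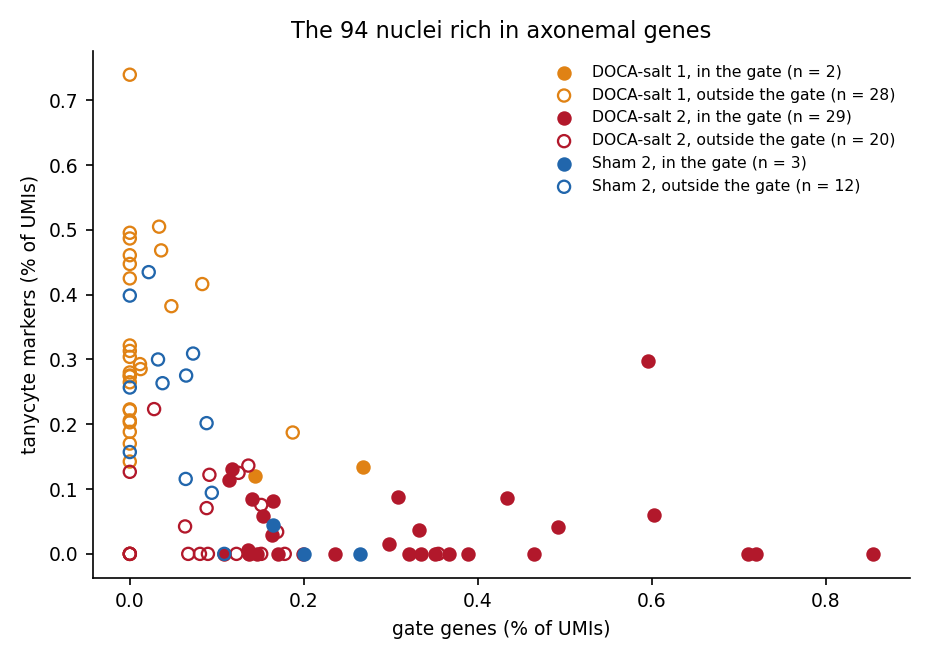
Percent of UMIs in the 5 gate genes (x axis) and in 8 tanycyte markers (y axis) for the 94 nuclei rich in axonemal genes, filled when inside the gate. Nuclei of DOCA-salt 1 and Sham 2 lie mostly along the y axis with tanycyte markers, and nuclei of DOCA-salt 2 mostly along the x axis.

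The share of ciliated nuclei was compared between treatments over the 4 libraries. The DOCA-salt libraries averaged 0.131% (0.0291% and 0.233%), and the Sham libraries averaged 0.0451% (0% and 0.0902%). The difference of 0.0858 percentage points was smaller than the gap between the DOCA-salt libraries, and the groups overlapped (two-sided exact permutation test, p = 0.667, n = 2 and 2, where the smallest possible p is 0.333). Without DOCA-salt 2 the difference was -0.0160, and with 2 gate genes but no minimum share, a choice that favours deep nuclei, it was -0.479 (p = 0.333, exact permutation test). With nuclei chosen by axonemal genes, as above, it was 0.178 and the groups did not overlap (0.291% and 0.259% against 0% and 0.193%), also at the smallest possible p of 0.333 (exact permutation test). Fewer ciliated cells in a punch and fewer of their nuclei recovered cannot be told apart here.

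Gene levels in the gated nuclei were then compared between treatments on UMIs summed per library. Sham 1 had no gated nucleus and was dropped from the fit, which left DOCA-salt 1 and 2 against Sham 2 alone, with the lone Sham library assumed to vary like the DOCA-salt libraries. The filter on low counts left 472 genes, over which p-values were adjusted, and 3 of these were gate genes, which are left out of the counts. Of the other 469 genes, 1 was called (0.213%; edgeR quasi-likelihood test, FDR under 0.05), and 13 had an unadjusted p under 0.05. The called gene was Mal, a proteolipid gene of myelin, with 0, 13 and 21 UMIs in DOCA-salt 1, DOCA-salt 2 and Sham 2, or 0, 69.1 (36.8 to 118) and 988 CPM (612 to 1511). It was lower in DOCA-salt by 3.93 on the log2 scale (a log2 fold change of -3.93, edgeR, FDR = 0.0133). A single Sham 2 nucleus held 15 of its 21 UMIs and had 3.29% of its UMIs in oligodendrocyte markers, and the other 6 nuclei had 6 UMIs of Mal. Without the highest nucleus of each library, Mal was at 337 CPM in Sham 2 and 54.5 CPM in DOCA-salt 2, which is given with no test. The other Sham 2 nuclei were not free of oligodendrocyte RNA, since the next had 1.52% and 0.713% of their UMIs in those markers, while the highest of DOCA-salt 2 had 0.344%. In all other nuclei Mal was at 54.5, 125 and 183 CPM in DOCA-salt 1, DOCA-salt 2 and Sham 2, and the part of either in the difference was not tested. The call was lost without the filter on low counts (log2 fold change -3.73, edgeR FDR = 0.925), with DESeq2 (-4.29, adjusted p = 0.999) and with nuclei of at least 1000 UMIs (-3.82, edgeR FDR = 0.0850), while the fold change stayed of similar size.

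Ptgds, Bc1 and mt-Atp8 were among the genes of next lowest p and did not pass the threshold. Ptgds, the prostaglandin D synthase gene, which oligodendrocytes and meninges express strongly, had 0, 45 and 39 UMIs in DOCA-salt 1, DOCA-salt 2 and Sham 2 (log2 fold change -3.26, edgeR FDR = 0.350), of which 33 lay in 1 Sham 2 nucleus. Bc1, a neuronal non-coding RNA, had 1, 65 and 59 UMIs, or 176, 345 and 2776 CPM (-3.28, FDR = 0.797). Over all kept nuclei Bc1 was at 208 and 313 CPM in the DOCA-salt libraries and at 2219 and 3135 CPM in the Sham libraries, so the Sham libraries were also higher when all kept nuclei were summed, and the part of this in the ciliated difference was not tested. The mitochondrial gene mt-Atp8 had 1, 15 and 15 UMIs (79.7 CPM in DOCA-salt 2 and 706 in Sham 2, FDR = 0.307), and Gm42418, a transcript that overlaps ribosomal RNA, had 48, 421 and 434 (-2.43, FDR = 0.998). Both were highest in Sham 2 outside the gate as well, with mt-Atp8 at 129, 73.5 and 465 CPM and Gm42418 at 3580, 894 and 9203 CPM in all other nuclei of the same 3 libraries. Nts, the neurotensin gene, had 0, 8 and 1 UMIs and did not pass the filter.

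Few cilia and steroid genes had enough UMIs to be tested in this fit. Almost no gene was called in it at all, so a lack of calls in such short lists says little about them. Of the axonemal genes 9 were tested and 0 called in either direction. Dnah12 had a log2 fold change of 0.82, Spef2 of 0.46 and Odf3b of -0.01 (edgeR, FDR = 0.998 each). Of the surface and fluid genes 9 of 20 were tested, with 0 called and a median log2 fold change of -0.33, and Nnat was at -0.38. Of the corticosteroid list 2 of 18 were tested, with 0 called and a median of -0.03, and Mt1 was at -0.09. Agt, the 1 renin-angiotensin gene tested, was at 1.34 (FDR = 0.998). The median over all 469 genes was 0.05.

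Whether a treatment effect in the ciliated nuclei differed from that in all other nuclei was tested on both sums of each of the 3 libraries. Of 14936 genes outside the gate, 0 were called (0%; edgeR, lowest FDR = 1), with 104 at an unadjusted p under 0.05. With 3 libraries, of which DOCA-salt 1 had 5697 UMIs in gated nuclei, this count says nothing about how alike the effects were.

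**Figure D5:**
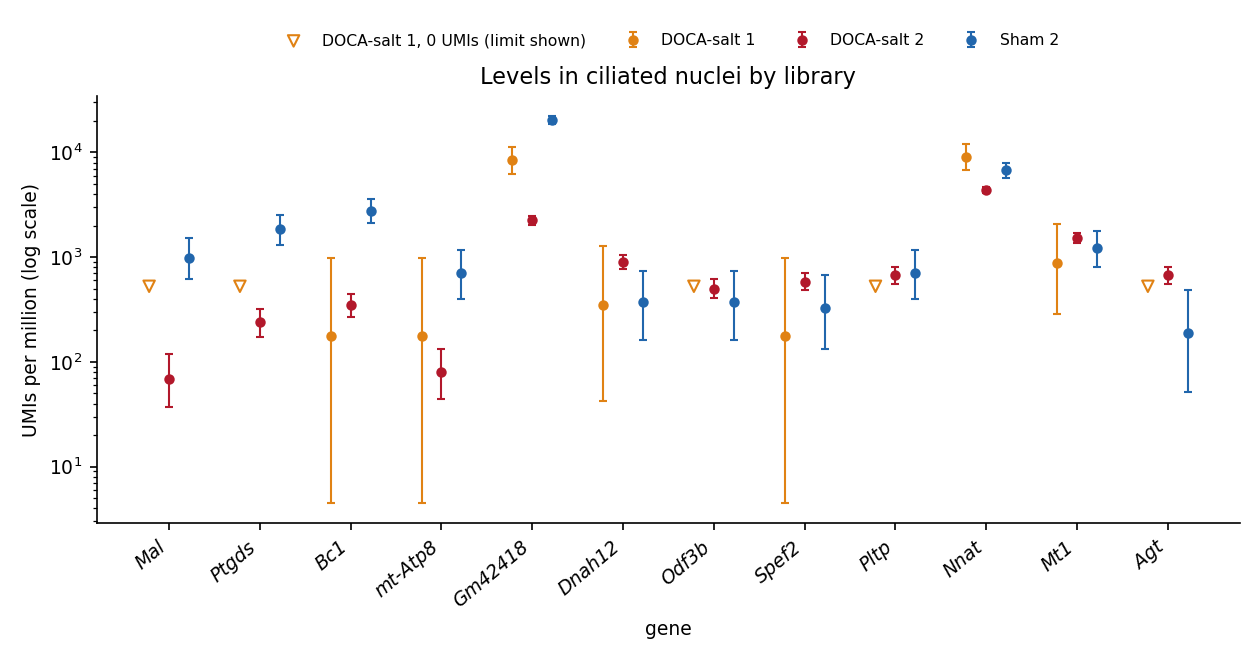
CPM (log axis) of 12 genes in the gated nuclei of DOCA-salt 1, DOCA-salt 2 and Sham 2, with exact 95% Poisson intervals. Triangles stand for 0 UMIs in DOCA-salt 1, at the level of 3 UMIs. Mal, Ptgds, Bc1, mt-Atp8 and Gm42418 were highest in Sham 2, the intervals of DOCA-salt 2 and Sham 2 overlapped for Odf3b and Spef2, and for Dnah12 that of DOCA-salt 2 (763 to 1038) lay above that of Sham 2 (163 to 742).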

How the data were processed

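Nuclei of ARC punches were run on 10x Genomics chips (3' kit, v3), with 2 mice pooled per library. The authors made the deposited counts, whole UMI counts per gene and barcode without normalization, with Cell Ranger 3.0.1 on mm10 (GRCm38), per the labels, and the tables hold 31053 genes. Library totals were 45126915, 79437196, 53257230 and 59293582 UMIs (DOCA-salt 1, DOCA-salt 2, Sham 1, Sham 2), of which the 54 gated nuclei held 5697, 188190, 0 and 21250. The libraries of a treatment came from different mice. For gene levels only Sham 2 entered for Sham, so the p-values rest on the spread between the DOCA-salt pools. Permutation p-values count arrangements of the libraries and do not measure a spread.

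Nuclei were called doubly marked and axoneme-rich as defined in the text. Barcodes with more than 200 and under 7000 genes, under 25000 UMIs and under 15% mitochondrial UMIs were kept, as in the study. The gate, the gene lists and the tests were chosen with earlier results of these data known. Because the gate reads the counts, gated against other nuclei is described with no test. UMIs were summed per library and tested with edgeR 4.0.16 in R 4.3.3 (TMM, filterByExpr, quasi-likelihood, FDR 0.05), where the design had foreseen 4 libraries and Sham 1 had to be left out. The gate genes stayed in the fits and in the adjustment of p-values, but their tests are not reported. Shares were compared by exact permutation (scipy 1.17.1). Alternatives were DESeq2 1.42.0, RLE size factors, no filter, other gates and depths, and leaving out libraries. The scripts were tested on simulated data with genes changed by 2 on the log2 scale. With libraries and UMIs as here, the treatment fit recovered 41.3% of the changed genes tested and the fit of the difference in effect 0%. With 4 libraries of equal size and low dispersion, these were 100% and 78.6%. Oligodendrocyte nuclei, used for background, had at least 4 markers and 1% of UMIs in them. The rule for named genes took the gate genes, called genes, the 4 genes with the most UMIs in each list of cilia, surface, steroid and angiotensin genes, the first 25 of the ranking, and Bc1, Gm42418, mt-Atp8, Nts and Dynlrb1. For marker lists of other cell types only the leading or defining genes are named. All other genes, among them Dnali1, Pltp, Cd24a, Vim, Mia, Aqp4, Sox9, Scnn1a, Ptgds and those at 0 UMIs, were named after their values were seen. Gene positions are from GENCODE M21, which held 31011 of the 31053 genes by identifier, and promoters from RefSeq. The authors' clusters and tests were not used here, and no doublet caller was run. Some genes of the lists are not reported here.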

Additional observations from a re-analysis of the deposited data

Results flagged for a closer look

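In DOCA-salt 2, 5 barcodes that the quality limits had removed also passed the ciliated gate, which is 0.590% of its 847 removed barcodes, and 2 of them were over the limit on genes or UMIs, with up to 43296 UMIs. Sham 2 had 1 such barcode of 566 (0.177%), with 45111 UMIs, and DOCA-salt 1 and Sham 1 had 0. They were looked at because they are a signal in barcodes that no comparison above uses. Counted in, the nuclei are 3, 49, 0 and 8 in DOCA-salt 1, DOCA-salt 2, Sham 1 and Sham 2.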

How the results depend on the processing

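The difference in the share of ciliated nuclei (0.0858 percentage points, DOCA-salt minus Sham) ranged from -0.0160 to 0.188 when each library was left out in turn, and it was negative only without DOCA-salt 2. It was -0.479 with 2 gate genes and no minimum share. Under the other 6 settings (nuclei thinned to or limited to 1000 UMIs, a stricter gate of 3 genes and 0.2%, all deposited barcodes, no doubly marked nuclei, and the choice by axonemal genes, added after seeing the data) it lay between 0.0288 and 0.178. With libraries of the same number taken as a block, the difference was the same 0.0858 (p = 0.5, exact permutation test, the smallest such a block allows). The labels tie these libraries to each other by nothing beyond the number. No such block could be fitted for gene levels because only library number 2 had gated nuclei in both treatments. The count of genes called between treatments was 1, and it was 0 without the filter on low counts, 0 with DESeq2, 4 with nuclei of at least 1000 UMIs (Ncdn higher in DOCA-salt, Pomc, Enpp2 and mt-Atp8 lower) and 2 without doubly marked nuclei (both lower, Bc1 among them, of 42 tested). It was 1 with RLE size factors (Mal) and 1, not Mal, after thinning to the smallest sum. With nuclei of at least 1000 UMIs, DOCA-salt 1 was left with 1 nucleus. Of the genes called there, Ncdn had 0 UMIs in Sham 2. For both Pomc and Enpp2, 1 Sham 2 nucleus held 9 of the 12 UMIs of that library. Leaving out Sham 1 changes nothing, since it holds no gated nucleus, and so gives 1. Leaving out any other library leaves 1 library against 1, or no Sham library, and no test. The stricter gate leaves no DOCA-salt 1 nucleus, and no fit was made. The count of 0 for the difference in effect stayed 0 in its alternatives. The log2 fold changes of Bc1 and Gm42418 kept their sign in every alternative that could be fitted, and those of Mal and mt-Atp8 in those that tested them, which leave out the alternatives without doubly marked nuclei and with thinned sums. Depth is 1 limit, since 5697 UMIs in DOCA-salt 1 allow 527 CPM for a gene at 0, and the single Sham library with gated nuclei is another.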
